A study of Mus musculus with 4 samples.

Results

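The genes described are 10 of the 18767 measured in this single-cell study of mouse aorta: the collagen IV chain genes *Col4a1*, *Col4a2*, *Col4a3*, *Col4a4* and *Col4a5*, the laminin chain genes *Lama4*, *Lama5*, *Lamb1* and *Lamc1*, and the nidogen gene *Nid1*. They were selected on their levels in these cells, on the collagen IV chains found together in a cell and on their change between the genotype labels, so those values are given as a description with no test. They were read in the 824 cells with more than 1200 detected genes, of 991 cells deposited in 4 libraries. Live CD31+ CD45- cells were sorted one to a well from aortas cut from the root to the iliac artery with the adventitia removed, and were sequenced by SORT-seq, a plate method that counts the 3' end of each transcript once by a unique molecular identifier (UMI). Since a transcript gives 1 count whatever its length, levels of different genes are compared directly in CPM, the counts of a gene scaled to a fixed total. The label *Jag1* ECKO was given to 2 libraries (s001 and s002) and the label *Jag1* ECWT to the other 2 (s003 and s004). All mice were males of 1.5 to 3 months on a C57BL/6J background and carried *Jag1* fl/fl, a *Jag1* allele that Cre recombinase can cut. *Jag1* ECKO mice also carried *Cdh5*-CreERT2, which makes a tamoxifen-dependent Cre in endothelial cells (EC) under control of the *Cdh5* gene, and *Jag1* ECWT mice were *Cdh5* +/+ and had no Cre. Tamoxifen was given at 2 mg per mouse per day for 5 days. How many aortas went into a library is not given in the sources used here, so p-values measure the spread between these libraries, which may be technical.

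Basement membranes are thin sheets of matrix on which EC rest, made of a laminin network and a collagen IV network that nidogen and the proteoglycan perlecan join. Collagen IV is secreted as a trimer: the chains of *Col4a1* and *Col4a2* combine in nearly every basement membrane, those of *Col4a3*, *Col4a4* and *Col4a5* combine in a network best known from the kidney glomerulus, and *Col4a5* combines with *Col4a6* in some others, smooth muscle among them. A laminin trimer holds an alpha, a beta and a gamma chain, and the alpha chains of *Lama4* and *Lama5* are the ones known from vessel endothelium.

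The collagen IV genes lie in pairs that start back to back and are read in opposite directions, which is why sequences near their starts are shown (GENCODE gene models and RefSeq promoter windows, both on GRCm38). *Col4a1* (chr8:11198423-11312826, minus strand, 52 exons in its principal transcript) and *Col4a2* (chr8:11312805-11449287, plus strand, 48 exons) overlap by 22 bases at their first exons. *Col4a4* (chr1:82448423-82586849, minus strand, 48 exons) and *Col4a3* (chr1:82586921-82722059, plus strand, 52 exons) are 71 bases apart. *Col4a5* (chrX:141475385-141689234, plus strand, 54 exons) lies 1308 bases from the start of *Col4a6*. Below are the 71 bases between *Col4a4* and *Col4a3* (chr1:82586850-82586920) and the 30 bases around the CCAAT match in each of the *Col4a1* (chr8:11312954-11312983) and *Col4a2* (chr8:11312761-11312790) windows, with matches in capitals.
*Col4a4* to *Col4a3*, minus strand: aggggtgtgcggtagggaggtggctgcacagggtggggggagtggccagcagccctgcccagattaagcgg
*Col4a1*, minus strand: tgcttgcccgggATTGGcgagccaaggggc
*Col4a2*, plus strand: ccgaggagctccCCAATttgttggcgctgc

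Windows from 250 bases before to 50 after each start were searched on both strands for 3 motifs. They were the CCAAT box, the core of a GC box (the letters GGGCGG) and a TATA box (the letters TATAAA). The table held windows of 7 of the 10 genes. Of the 32851 windows of this length in the table, 37.4% held CCAAT, 35.7% GGGCGG and 13.6% TATAAA. The windows of *Col4a1* and *Col4a2* share 78 bases. The *Col4a2* window held 1 CCAAT match, 32 bases before its start, and 3 GGGCGG matches. The *Col4a1* window held 1 of each, and the CCAAT match on its other strand began 145 bases before the start. Its GGGCGG match lies in the 78 shared bases and is the same site as 1 of the 3 in the *Col4a2* window. The *Col4a4* window held none of the 3 motifs, nor does the stretch printed above. Such matches were found outside the pair as well. *Col4a5*, *Lamb1* and *Nid1* each held 1 match to the CCAAT box, with 1, 2 and 1 to the GC box core, of which *Lama5* held 4. The TATA box letters were found in none of the 7 windows. A match is a description of letters and not a binding site.

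The cells were clustered after the study's methods, and 794 of the 824 were EC-like by marker genes (194, 224, 137 and 239 in s001 to s004). They are called EC below, and all 12 EC markers were detected in every library. The other 30 formed 1 cluster of fibroblast-like and vascular smooth muscle cell (VSMC)-like cells. Cells over the gene minimum held a median of 4212 to 6517.5 counts by library. *Jag1*, the targeted gene, went against the labels, at 164 and 72.6 CPM in s001 and s002 against 30.8 and 26.4 CPM in s003 and s004. The counts come from the 3' end and the exons removed by Cre are not given in the sources used here, so this does not check the deletion. The study checked the deletion by other assays, which are not analysed here. Whether the labels of these libraries were exchanged was not tested, and an exchange would turn the direction of every difference between labels given below, which is why libraries are named by their label. Library s001 stood apart: 29 of its 194 EC formed a cluster of their own led by dissociation response genes (*Nr4a1*, *Junb*, *Ppp1r15a*), the 30 genes of that list summed to 5591 CPM in it against 3263 to 4170 CPM in the other 3, and its red blood cell markers summed to 79.0 CPM against 0. Pairs of libraries shared 118 to 216 well barcodes, and 0 of those barcodes held identical counts. In EC the 12 fibroblast markers summed to 1093, 1143, 1188 and 1740 CPM in s001 to s004 and the 11 VSMC markers to 701, 670, 465 and 425 CPM, with *Lama2* at 0 in s001 and *Cnn1* and *Tpm2* at 0 in s003.

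*Col4a1* was the leading gene of the group. Libraries s001 to s004 gave 319, 358, 364 and 305 CPM, a mean of 337 ± 28.8 CPM (SD, n = 4 libraries), and 68.6 to 77.2% of EC had a count. The library labels interleaved. Among all genes its mean level ranked 371. Its partner *Col4a2* stood at 124, 141, 183 and 119 CPM in s001 to s004, a mean of 142 ± 28.9 CPM, with a count in 33.5 to 47.8% of EC. *Col4a1* was higher than *Col4a2* in every library, at 2.42 ± 0.282 counts (SD, n = 4) for each *Col4a2* count.

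RNA of the second collagen IV network was counted in EC as well. *Col4a4* reached 181, 194, 189 and 252 CPM in s001 to s004 (mean 204 ± 32.3), above *Col4a2* in 4 of 4 libraries, and 46.9 to 61.6% of EC had a count. *Col4a3* reached 49.5, 34.8, 87.8 and 98.0 CPM (mean 67.5 ± 30.2), and both libraries labelled *Jag1* ECKO lay below both labelled *Jag1* ECWT. *Col4a5*, the X-linked chain that joins them in a trimer, reached 23.2, 13.4, 23.7 and 36.1 CPM (mean 24.1 ± 9.31), with a count in 7.14 to 18.4% of EC. The order was thus *Col4a4* over *Col4a3* over *Col4a5* in every library. *Col4a6*, which is not among the 10 genes and also pairs with *Col4a5*, had 40 counts over 794 EC.

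The laminin and nidogen genes were all below *Col4a1*, *Col4a2* and *Col4a4* on the mean. *Lama5* (chr2:180176373-180225859, minus strand, 79 exons) stood at 84.3, 57.4, 87.8 and 54.2 CPM in s001 to s004 (mean 70.9 ± 17.6). *Lama4* (chr10:38965515-39110188, plus strand, 38 exons) stood at 62.2, 31.7, 55.7 and 41.0 CPM (mean 47.7 ± 13.8). In both, s001 and s003 were the high libraries, 1 of each label, and *Lama5* was higher than *Lama4* in every library. The gamma chain gene *Lamc1* (chr1:153218922-153332786, minus strand, 28 exons) stood at 54.8, 39.7, 90.1 and 66.0 CPM (mean 62.7 ± 21.3), with the 2 libraries labelled *Jag1* ECKO below the others. The beta chain gene *Lamb1* (chr12:31265234-31329644, plus strand, 34 exons) was the lowest of the 10, at 12.6, 11.6, 10.7 and 9.04 CPM (mean 11 ± 1.53, from 9 to 19 counts a library), and only 4.02 to 6.57% of EC had a count. Another beta chain gene outside the group, *Lamb2*, was at 391 ± 32.2 CPM, so that EC held 35.4 counts of *Lamb2* for each of *Lamb1* (95% exact interval from the counts 26.9 to 47.4). Here and below, intervals cover counting error only. *Nid1* (chr13:13437551-13512269, plus strand, 20 exons), whose protein links laminin to collagen IV, stood at 96.9, 64.1, 67.6 and 66.7 CPM (mean 73.8 ± 15.5), with s001 above the other 3.

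**Figure D1:**
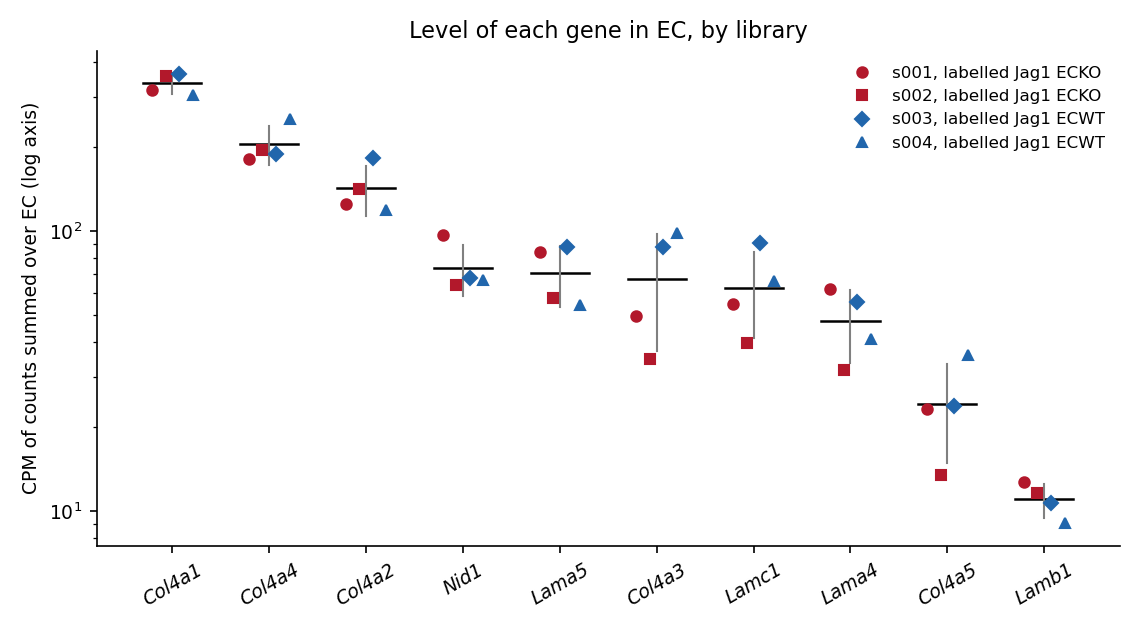
Level of each of the 10 genes in EC, in CPM of counts summed over the EC of a library, on a log axis. Points are the 4 libraries, horizontal bars the mean and vertical bars 1 SD. *Col4a1* lies above all others (305 to 364 CPM) and *Lamb1* at the bottom (9.04 to 12.6 CPM).

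Ordered by mean level, the genes ran *Col4a1*, *Col4a4*, *Col4a2*, *Nid1*, *Lama5*, *Col4a3*, *Lamc1*, *Lama4*, *Col4a5*, *Lamb1*. The libraries' ranges of neighbours did not overlap at 3 of the 9 steps, *Col4a1* over *Col4a4* (1.65-fold), *Col4a2* over *Nid1* (1.92-fold) and *Col4a5* over *Lamb1* (2.20-fold). The other neighbours overlapped in range, and *Nid1*, *Lama5*, *Col4a3* and *Lamc1* had means within 62.7 to 73.8 CPM. *Col4a1* stayed first and *Lamb1* last under each of 15 alternative cell sets, level measures and left-out libraries.

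The chains of a collagen IV trimer must be made by the same cell, and the counts were therefore read in pairs. Both *Col4a1* and *Col4a2* were counted in 28.9%, 41.5%, 38.0% and 31.4% of EC in s001 to s004, a mean of 34.9 ± 5.83% (SD, n = 4). The product of the 2 genes' own shares was 23.0%, 36.9%, 33.4% and 28.1% in the same order, so the pair was seen together 1.12 to 1.26 times as often as that product in all 4 libraries. Of EC with a *Col4a2* count, 78.9 to 86.9% also had a *Col4a1* count, whereas of EC with a *Col4a1* count 42.1 to 53.8% had one of *Col4a2*. Over all libraries 297 EC (37.4%) had *Col4a1* alone of the pair and 55 (6.93%) had *Col4a2* alone.

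Deeper cells have more of every gene, which by itself raises such ratios. With each cell thinned to 2833 counts, which kept 714 EC, the pair was counted in 17.0 ± 3.04% of EC against a product of 14.2%, and the ratio was 1.11 to 1.30 by library. Across thinned EC of a library, Pearson's r of log2(CPM + 100) between the 2 genes was 0.13 to 0.36 (125 to 219 cells a library), a weak relation in sparse counts.

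*Col4a3* and *Col4a4*, the other back-to-back pair, were counted together in 12.4%, 14.7%, 30.7% and 27.2% of EC in s001 to s004, 1.26 to 1.40 times the product of their shares. After thinning the pair was counted in 7.62 ± 3.50% of EC, and the ratio ran from 1.01 in s002 to 1.48 in s003. All 3 chains of the trimer, *Col4a3*, *Col4a4* and *Col4a5*, were counted in 38 of 794 EC (4.79%). A pair taken across the 2 networks, *Col4a1* with *Col4a4*, was counted together 0.878 to 1.04 times its product after thinning, and its r was -0.08 to 0.04.

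RNA of both collagen IV networks was counted together in many EC, and these shares were not set against a product. Genes counted in many EC meet in the same cell without any link, and *Col4a1* with *Col4a4* stood near its product above. Counts of at least 1 chain of each network were found in 423 EC (53.3%; 42.3%, 55.4%, 56.2% and 58.6% in s001 to s004), of *Col4a1* or *Col4a2* alone in 205 (25.8%), of *Col4a3*, *Col4a4* or *Col4a5* alone in 100 (12.6%) and of neither in 66 (8.31%). Not 1 of the 10 genes was counted in 27 EC (3.40%), and the median EC had counts of 3 of the 10. Laminin pairs were thinly counted: an alpha chain (*Lama4* or *Lama5*), a beta chain (*Lamb1* or *Lamb2*) and *Lamc1* were found together in 86 EC (10.8%), from 8.04% in s002 to 21.2% in s003. Both alpha chain genes were counted in 44 EC (5.54%). After thinning, *Lama5* with *Lamc1* gave a ratio to the product of 0.503 to 1.31 by library and *Lama4* with *Lamc1* 0.517 to 2.38, with no direction that held in all 4.

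**Figure D2:**
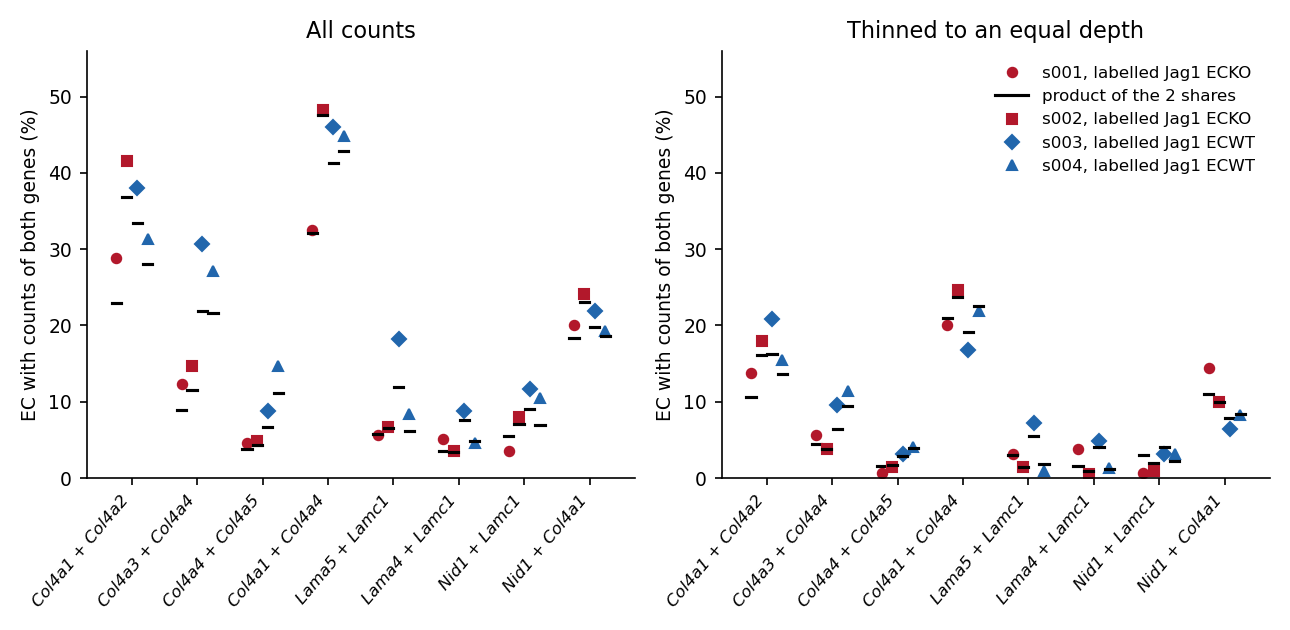
Share of EC with counts of both genes of a pair, in percent, for all counts (left) and for cells thinned to 2833 counts (right). Points are the 4 libraries and black bars the product of the shares of the 2 genes in that library. The points of *Col4a1* with *Col4a2* lie above their bars in all 4 libraries in both panels.

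For likeness, genes with a count in at least 10% of thinned EC of every library were ranked by their mean r over the 4 libraries with the sum of *Col4a1* and *Col4a2* (3086 genes). The leading 8 were *Thbs1* (0.17), *Tinagl1* (0.15), *Cxcl12*, *Edn1*, *Nfib*, *Gpx1*, *Stx5a* and *Sparc* (0.12). *Thbs1* encodes the matrix protein thrombospondin 1, *Tinagl1* a basement membrane protein and *Sparc* a collagen-binding protein. For the sum of *Lama4*, *Lamb1* and *Lamc1* the leading genes of 3087 included *Nudt4* (0.15), *Kank1*, *Grb10*, *Aebp1*, *Igfbp4*, *Prpf8* and *Yme1l1* (0.13). All these values are weak, the cells of a library share its depth and chemistry, and the values are given as a description.

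EC are not uniform, and the 10 genes divided along the clusters. Since clusters are made from the same counts, their differences are a description with no test. Of the 10 genes, *Col4a1*, *Col4a2*, *Lama4* and *Lamb1* were among the 2000 variable genes used for clustering, and none was in the leading 10 genes of a cluster. The levels in 2 clusters are given first.

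In the 17 cells led by *Gpihbp1*, *Cd36* and *Igfbp3*, which held 6 of 8 capillary or lipid-handling markers and are called capillary-like, *Col4a2* reached 679 CPM (47 counts, 95% exact Poisson interval 499 to 903) against 131 CPM in all other EC, a 5.2-fold difference. *Col4a1* reached 665 CPM (46 counts, 487 to 887), 2.01 times the other EC. The 2 chains were therefore at 0.979 counts of *Col4a1* for each of *Col4a2* (0.637 to 1.5), against 2.43 over all EC. Of the second network these cells held 0 counts of *Col4a3*, which allows up to 43.4 CPM (3 counts) and makes it at least 1.53-fold lower than the 66.5 CPM of other EC, 1 count of *Col4a4* and 0 of *Col4a5*. *Lama5* was at 173 CPM (12 counts, 89.6 to 303) against 65.4. The cells came from all 4 libraries, 4, 4, 8 and 1 of them in s001 to s004, so values by library cannot be set side by side.

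In the 32 cells led by *Lrg1*, *Fabp4* and *Pde2a*, which had markers of several vessel types and are left unnamed, collagen IV was low and *Lama4*, *Lamb1* and *Nid1* were high. *Col4a1* was at 96.0 CPM (17 counts, 55.9 to 154) against 345 CPM in other EC, *Col4a4* at 22.6 CPM (4 counts) against 215, and *Col4a3* had 0 counts, at least 4.01-fold lower than in other EC. *Lamb1* was at 102 CPM (18 counts, 60.2 to 161) against 7.46 CPM, so that these 32 cells held 18 of the 53 *Lamb1* counts in EC. *Lama4* was at 192 CPM (34 counts, 133 to 268) against 39.0, and *Nid1* at 248 CPM (44 counts, 181 to 334) against 65.2. Both libraries with 8 or more of these cells (s001 and s002) had *Lama4*, *Lamb1* and *Nid1* above and *Col4a1* and *Col4a2* below their other EC. This cluster took 9.3%, 4.0%, 2.2% and 0.8% of EC in s001 to s004. When the cells were clustered without these genes and the other listed basement membrane genes, clusters led by the same genes returned, with *Nid1* at 239 CPM in the *Lrg1* cluster and *Col4a2* at 679 CPM in the capillary-like one.

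In some of the other clusters, but not in all, the 2 collagen IV networks leaned apart. In the 68 cells led by *Aqp1*, *Fxyd6* and *Galnt18* genes of both were below the other EC. These were *Col4a1* (205 against 346 CPM), *Col4a2* (52.6 against 145), *Col4a3* (58.5 against 66.0) and *Col4a5* (11.7 against 24.7), while *Col4a4* was above (231 against 206). In the 94 cells led by *Igf2*, *Nog* and *Vcan*, *Col4a3* (29.8 CPM), *Col4a4* (104 CPM) and *Col4a5* (1.86 CPM, 1 count) were below the other EC in all 4 libraries, while *Col4a2* (175 CPM) and *Lama5* (114 CPM) were above them in all 4. In the 88 cells led by *Sfrp2*, *Thbs1* and *Gdf6* *Col4a3* (116 CPM against 59.0) and *Col4a5* (63.5 CPM against 18.8) were above the other EC in all 4 libraries, and s004 supplied 55 of these cells. *Col4a6*, the other partner of *Col4a5*, was above the other EC in all 4 libraries there too, at 34.5 CPM against 4.86, and the cluster held 19 of the 40 *Col4a6* counts in EC. *Col4a1* and *Col4a2* were above the other EC in all 4 libraries in the 74 cells led by *Cxcl1*, *Cxcl12* and *Cxcl9*, at 452 and 196 CPM, though *Col4a2* was so in 3 of 4 when the listed genes were left out of the clustering. In the 31 cells led by *Coch*, *Fbln5* and *Adra2a* *Col4a1* was at 629 CPM, and 21 of them came from s002. Clustered without the listed genes, the cells led by *Coch*, *Adra2a* and *Fbln5* numbered 67, with *Col4a1* at 484 CPM and in 77.6% of them. *Lama5* (124 CPM) and *Lamc1* (113 CPM) were highest, among clusters of more than 50 cells, in the 56 cells led by *Pthlh*, *Ifit1* and *Klk10*.

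**Figure D3:**
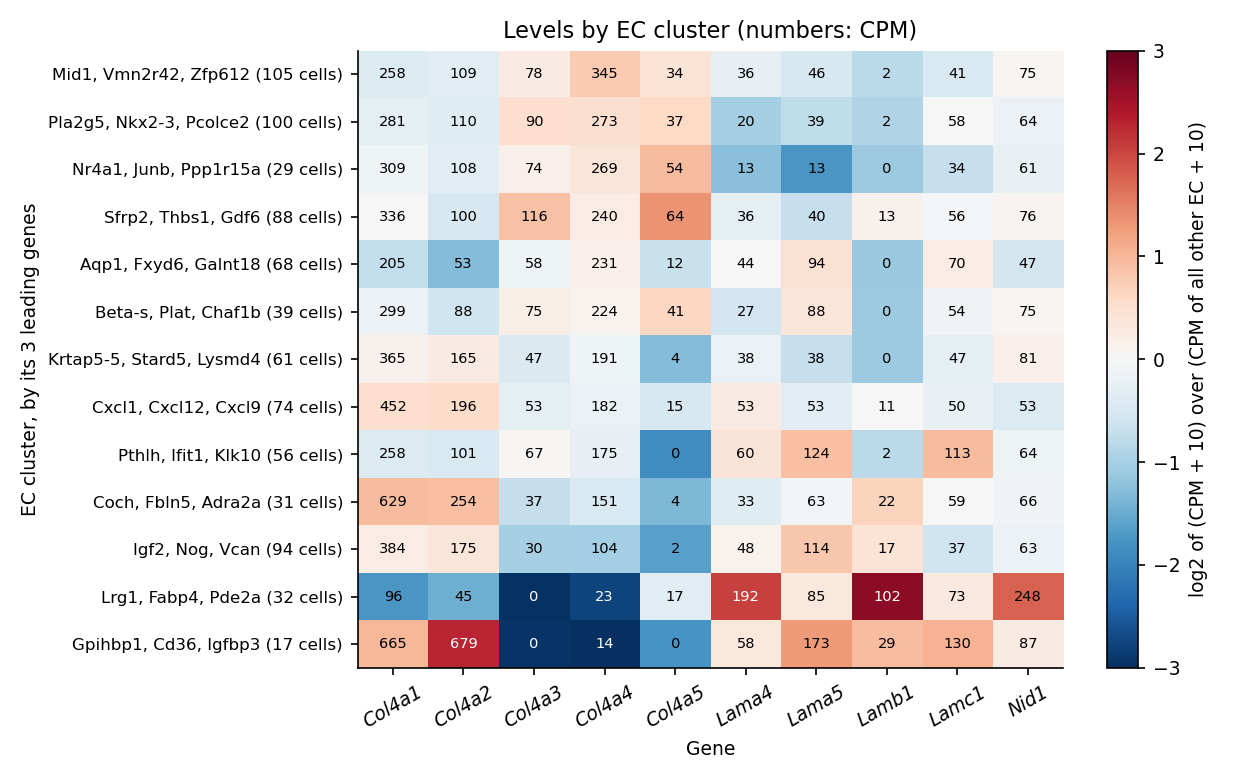
Levels of the 10 genes in the 13 EC clusters, named by their 3 leading genes and ordered by *Col4a4*. Numbers are CPM of summed counts and colours the log2 of CPM + 10 in a cluster over CPM + 10 in all other EC. The 2 bottom rows, the *Lrg1* and *Gpihbp1* clusters, show *Col4a3* at 0 and *Col4a4* at 22.6 and 14.5 CPM.

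The 30 cells of the fibroblast/VSMC-like cluster (8, 12, 3 and 7 in s001 to s004) had more of the common collagen IV pair. Over the cluster, *Col4a1* was at 636 CPM (176 counts), 1.89 times its level in EC (1.61 to 2.21), and *Col4a2* at 434 CPM (120 counts), 3.13 times (2.56 to 3.81). Both were higher than in EC in 3 of 4 libraries, s003 with its 3 such cells being the exception. Without s001 the ratios were 1.40 and 2.15. *Col4a5* was 3.34 times its level in EC (22 counts, 2.01 to 5.30) and its partner *Col4a6* was at 123 CPM against 8.21 in EC. *Col4a3* and *Col4a4* were lower than in EC in 4 of 4 libraries, at 0.221 times (4 counts, 0.0597 to 0.570) and 0.244 times (14 counts, 0.133 to 0.411).

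Of the other genes, *Lamc1* was higher than in EC in 4 of 4 libraries (2.32 times, 1.61 to 3.26). *Lama4* was 2.19 times its level in EC (27 counts), but 18 of those counts came from s001 and the ratio was 1.06 without s001 and 3.45 without s002. *Lama5* (1.35 times) and *Nid1* (1.46 times) had intervals that include equal levels, though that of *Nid1* ran from 1.01 to 2.24 without s003 and from 1.01 to 2.36 without s004. *Lamb1* had 0 counts, which allows up to 10.8 CPM (3 counts) beside 10.9 CPM in EC, so that no difference was detectable at this depth. By summed markers, 13 of the 30 cells leaned to VSMC and 17 to fibroblasts, 1 of the 30 lying within 2-fold of equal. The VSMC-leaning cells held most of the collagen IV, with *Col4a1* at 832 CPM and *Col4a2* at 629 CPM against 426 and 224 CPM in the fibroblast-leaning cells, and 1.32 counts of *Col4a1* for each of *Col4a2* (0.997 to 1.76).

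**Figure D4:**
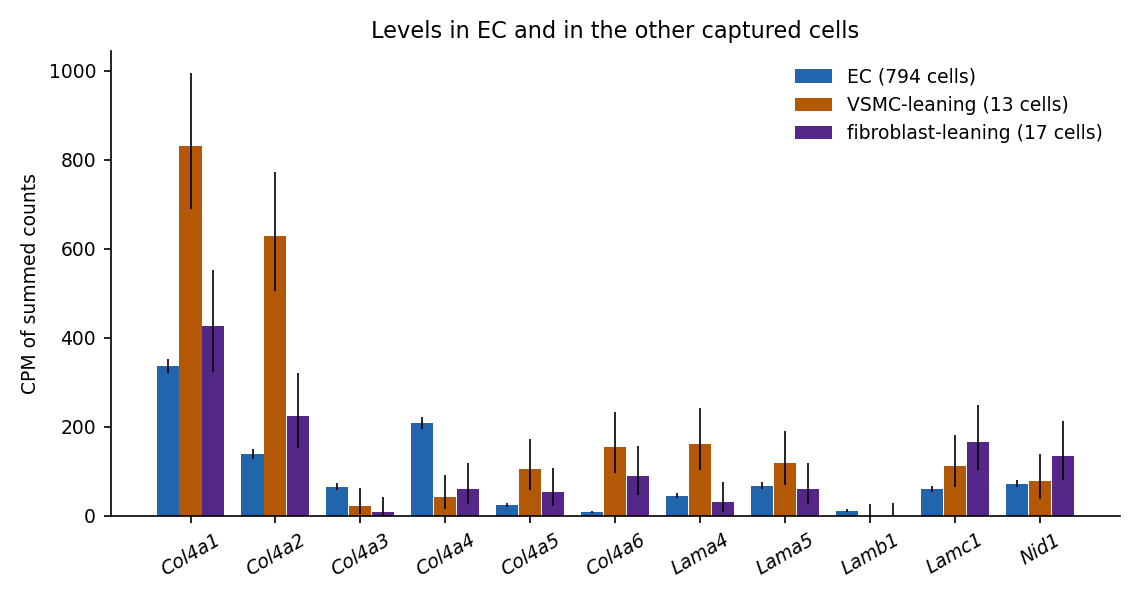
Levels of the 10 genes and of *Col4a6* in EC (794 cells), VSMC-leaning cells (13) and fibroblast-leaning cells (17), in CPM of summed counts. Error bars are 95% exact Poisson intervals, which cover counting error only. *Col4a3* and *Col4a4* are the collagen IV genes with their tallest bars in EC.

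The study deleted *Jag1*, a Notch ligand, in EC to learn what it does there, and the labels were compared over EC summed by library, with the library and not the cell as the replicate. By edgeR's quasi-likelihood test on all 9485 genes tested, 0 genes passed an adjusted p of 0.05 (0% of the background), and 416 (4.39%) had an unadjusted p under 0.05. DESeq2 called 1 gene at an adjusted p of 0.05, *Jag1* itself, and gave 100 at an unadjusted p under 0.05. The count of genes called by edgeR was 156 without s001, 143 without s002, 0 without s003 and 1 without s004, and 67 with all libraries and no low-count filter. With 2 libraries against 2, an exact permutation test of a single gene cannot give a p below 0.333. In simulated counts edgeR recovered 14% of genes changed by a log2 of 1 and 78.9% by a log2 of 2. A count of 0 calls therefore does not show equal levels.

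The largest difference among the 10 was that of *Col4a3*. Its log2 difference, libraries labelled *Jag1* ECKO over those labelled *Jag1* ECWT, was -1.15 (SE 0.24), from the 49.5 and 34.8 CPM against 87.8 and 98.0 CPM given above. Its share of EC with a count was 19.1% and 18.8% against 38.0% and 35.6%, and after thinning 11.9% and 9.0% against 17.6% and 21.9%. The difference kept its sign under all 17 alternatives, from -1.51 in EC without a count of 6 fibroblast and VSMC genes to -0.96 without s002. Every alternative reused these libraries, which already lay apart by label, so the kept sign is no further evidence. Its neighbour *Col4a4* differed by -0.22 (SE 0.21) with overlapping libraries, and by 0.07 without s004.

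The shares of EC clusters also differed between libraries, so *Col4a3* was read within the 3 clusters that had 8 or more EC of every library. In the *Igf2* cluster it was at 24.8 and 9.82 CPM (3 and 2 counts) in s001 and s002 against 76.7 and 43.8 CPM (4 and 7 counts) in s003 and s004. There the libraries labelled *Jag1* ECKO also lay below the others for *Col4a2* and *Lamb1*. They lay above for *Col4a1* (389 and 452 against 192 and 356 CPM) and *Col4a4* (149 and 137 against 95.8 and 31.3 CPM). The share of all genes that lay apart in such small clusters was not computed. For *Col4a3* the *Sfrp2* cluster gave 85.1 and 75.5 CPM against 97.5 and 135 CPM (5, 6, 7 and 46 counts in s001 to s004), again without overlap. In the *Cxcl1* cluster the libraries overlapped, at 77.8 and 28.2 CPM against 57.0 and 96.3 CPM. With cells clustered without these genes and the other listed basement membrane genes, the labels stayed apart in the *Igf2* cluster (28.9 and 10.4 against 71.2 and 49.6 CPM) but overlapped in the *Sfrp2* cluster (99.1 and 115 against 88.6 and 139 CPM). The part of cluster shares in the difference over all EC was not tested.

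*Lamc1* differed by -0.71 (SE 0.25) and *Col4a5* by -0.78 (SE 0.39), both with the libraries labelled *Jag1* ECKO below the others over all EC. Within each of the same 3 clusters the labels overlapped for both genes, *Lamc1* standing at 33.1 and 34.4 against 0 and 56.3 CPM in the *Igf2* cluster, 85.1 and 25.2 against 125 and 44.0 CPM in the *Sfrp2* cluster, and 64.8 and 25.1 against 97.7 and 59.3 CPM in the *Cxcl1* cluster. For *Col4a5* the step between 23.2 CPM in s001 and 23.7 CPM in s003 was small beside their counting error (22 and 20 counts), and the value was -0.38 over all cells with more than 1200 genes and -0.35 without s004. *Lamb1* differed by 0.33 (SE 0.46), with both libraries labelled *Jag1* ECKO above the others over all EC. That order turned outside the *Lrg1* cluster, where *Lamb1* was at 5.83 and 5.70 CPM against 10.8 and 8.41 CPM (5, 9, 9 and 12 counts in s001 to s004), a level too low to be fitted. In the same cells *Col4a3* was at 54.8 and 36.1 against 89.0 and 98.9 CPM, *Lamc1* at 52.5 and 39.3 against 87.8 and 66.6 CPM, and *Col4a5* overlapped. *Nid1* differed by 0.25 (SE 0.24), a value that was 0.01 without s001 and 0.09 without the *Lrg1* cluster. The remaining genes lay close to 0 with changing signs: *Col4a1* at 0.05 (SE 0.18), *Col4a2* at -0.13 (SE 0.23), *Lama4* at -0.05 (SE 0.32) and *Lama5* at 0.03 (SE 0.27). *Col4a2* turned to 0.18 over all cells with more than 1200 genes, *Lama4* ran from -0.49 without s001 to 0.36 without s002, and *Lama5* from -0.26 without s004 to 0.35 without s003.

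Counted over the 10, the libraries labelled *Jag1* ECKO lay below both others for 3 genes (*Col4a3*, *Col4a5* and *Lamc1*) and above both for 1 (*Lamb1*). Among all genes tested, 18.8% lay below and 15.6% above. The median log2 difference was -0.09 over the 10 and -0.00 over all genes tested. These counts come from the contrast on which the genes were chosen and nothing is read from them. Fibroblast and VSMC marker sums also moved with the labels, the first lower and the second higher in both libraries labelled *Jag1* ECKO. In those 2 libraries the sums over EC were also higher for the 8 capillary or lipid-handling markers (945 and 280 against 228 and 213 CPM, *Car4* at 0 in s004). The 5 lymphatic markers were higher too (63.2 and 89.1 against 51.0 and 38.2 CPM, *Prox1* at 0 in s003 and *Pdpn* in s001, s003 and s004). So were the 4 venous markers (2913 and 2779 against 2536 and 2272 CPM, none at 0). These include *Vwf*, which is also an EC marker here, so their sum does not measure venous cells alone. The part of the cells behind these marker sums in the differences was not tested. In EC without a count of *Col1a1*, *Col3a1*, *Lum*, *Myh11*, *Cnn1* or *Tagln* (92, 86, 85 and 103 cells in s001 to s004), *Col4a3* was at 45.6, 18.6, 92.3 and 82.9 CPM and *Lamc1* at 48.3, 42.7, 98.6 and 60.5 CPM, with the labels still apart. In the same cells the labels overlapped for *Col4a5*, at 16.1, 9.28, 12.6 and 31.1 CPM, and for *Lamb1*, at 16.1, 13.0, 12.6 and 13.8 CPM. These cells could still have counts of *Dcn* and *Acta2*, found in 31.4 to 52.2% and 28.5 to 71.0% of all EC by library. They were also shallower, with a median of 3505 to 5569.5 counts by library against 4838.5 to 7050 in the EC left out.

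**Figure D5:**
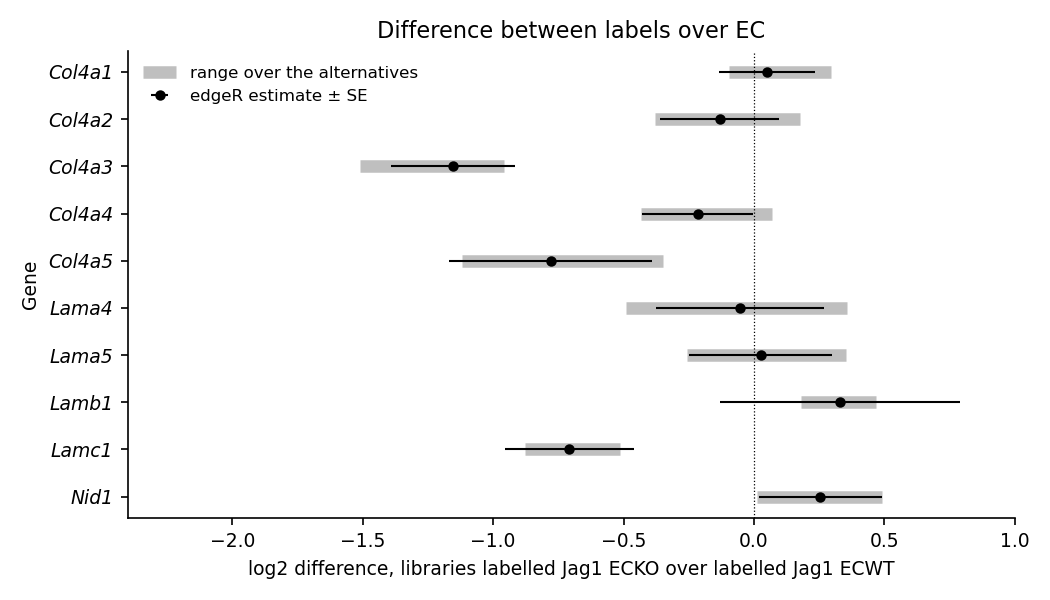
Log2 difference of each gene over EC, libraries labelled *Jag1* ECKO over those labelled *Jag1* ECWT. Points and thin bars are edgeR's estimate and its SE from 2 libraries of each label, and grey bars the range over the alternative settings. For *Col4a3*, *Col4a5* and *Lamc1* the grey bar lies wholly below 0, and for *Nid1* wholly above. All settings reuse the same libraries, so the grey bars are not independent evidence. The bar of *Lamb1* has no fitted value for EC outside the *Lrg1* cluster, where its order turned (5.83 and 5.70 against 10.8 and 8.41 CPM).

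The other genes of the basement membrane were taken from lists that name its proteins, the machinery of collagen IV assembly, receptors, and proteases with their inhibitors. No gene on them passed an adjusted p of 0.05 by edgeR or by DESeq2 in the 55 tested, and 4 of the 55 had an unadjusted p under 0.05 by edgeR, beside 4.39% of all genes tested. Of 16 other basement membrane genes tested, 1 was higher in the libraries labelled *Jag1* ECKO at an unadjusted p under 0.05, *Col18a1* (log2 difference 0.79, SE 0.28, unadjusted p = 0.0195, edgeR adjusted p = 0.921), which encodes collagen XVIII, and the list's median was -0.03. The abundant ones, *Sparc* at 2156 ± 283 CPM, *Fbln2* at 914 ± 66.6, *Tinagl1* at 760 ± 111 and *Smoc1* at 686 ± 24.1, had log2 differences of -0.22, -0.14, -0.27 and -0.01. Perlecan (*Hspg2*, 189 ± 36.1 CPM) and agrin (*Agrn*, 112 ± 17.3 CPM), which bind laminin, differed by -0.01 and -0.11. *Lamb2* differed by -0.02 and the netrin gene *Ntn1* (170 ± 53.3 CPM) by -0.04.

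Of 15 genes of collagen IV assembly tested, 0 had an unadjusted p under 0.05, and their median was -0.14. Among them were the collagen chaperone *Serpinh1* (190 ± 53.2 CPM, -0.27), the prolyl hydroxylase subunit *P4hb* (391 ± 36.6 CPM, -0.16) and the export factor *Mia3* (171 ± 10.8 CPM, 0.02). The others over 100 CPM, *Plod3*, *Crtap*, *Hsp90b1* and *Pdia3*, lay between -0.14 and -0.02. Of 13 receptors tested, the laminin receptor *Bcam* (941 ± 176 CPM) had a log2 difference of 0.45 (SE 0.19, unadjusted p = 0.0402, edgeR adjusted p = 0.921), and the integrin subunit *Itgb1* (877 ± 84.9 CPM) one of -0.05. The other genes over 100 CPM on the receptor list, whose RNA may also serve other roles, were *Rpsa* (963 CPM, 0.13), *Itga3* (263 CPM, 0.40), *Itgb4* (216 CPM, 0.30) and *Dag1* (157 CPM, -0.04). Of 11 proteases and inhibitors tested, 2 had an unadjusted p under 0.05, both lower in the libraries labelled *Jag1* ECKO. They were the protease inhibitor *Reck*, at 49.5 and 54.9 against 106 and 108 CPM (-1.0, SE 0.21, unadjusted p = 0.00113, edgeR adjusted p = 0.921), and the membrane protease *Mmp14* (-0.66, SE 0.29, unadjusted p = 0.0477, edgeR adjusted p = 0.921). *Timp3* (1953 ± 393 CPM, -0.38) and *Timp2* (1330 ± 31.4 CPM, 0.00) were the most abundant of that list. The others over 100 CPM were *Ctsb* (446 CPM, 0.35), *Adam10* (301 CPM, -0.13), *Ctsl* (261 CPM, -0.28), *Mmp2* (244 CPM, 0.05) and *Adamts1* (104 CPM, -0.00).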

How the data were processed

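The authors sorted single cells into plates, made SORT-seq libraries, aligned the reads with STAR to GRCm38 and deposited estimated counts for every gene in each cell, which are UMI numbers corrected for chance repeats and not normalized. The submitters' notes also name Seurat 3.1; the counting tool, its use of strand and the version of STAR are not given in the sources used here. Gene models of unmeasured transcripts lie antisense to the 3' ends of *Col4a1* and *Col4a3*. Each column was assigned to 1 of the 4 libraries by its name.

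Whole numbers were made of the estimated counts by rounding. Cells with more than 1200 genes were grouped by Seurat 5.3.0, run in R 4.3.3 (2000 variable genes, 12 principal components, 14 clusters at resolution 2.3), and a cluster with 6 or more fibroblast and VSMC markers at 3 times their level elsewhere was set apart. No doublet caller was run, since wells were filled by a sorter. Counts summed per library over EC were fitted with edgeR 4.0.16 (TMM, filterByExpr, quasi-likelihood test, Benjamini-Hochberg adjustment over all genes) and, as an alternative, DESeq2 1.42.0. The steps were tested on simulated data. Figures were drawn with matplotlib 3.10.9. Shares and CPM carry 95% exact binomial and Poisson intervals.

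The genes and lists were chosen with earlier results of these data known. Named are the 10 genes, *Jag1*, cell type markers and leading genes of clusters, listed genes over 100 CPM or at an unadjusted p under 0.05, *Lamb2* and *Col4a6*, and the 8 most alike genes, of which 1 is not reported here. Alternatives changed tool, scaling, filter, cells, depth, level and clustering, and left out each library. Added after seeing the data were EC outside the dissociation-led cluster, EC outside the *Lrg1*-led cluster and EC with no count of 6 fibroblast and VSMC genes.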

Additional observations from a re-analysis of the deposited data

How the results depend on the processing

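The number of genes called between labels over EC was 0, and 1 with DESeq2 (*Jag1*), 67 without a low-count filter (33 higher, 34 lower in the libraries labelled *Jag1* ECKO) and 0 to 156 with 1 library left out (156 without s001, 143 without s002, 0 without s003, 1 without s004, *Myh11*). A lone library is then assumed to vary like the others. Of the 55 other basement membrane genes, 0 were called, 1 (*Reck*) without the filter, and 0 to 5 with 1 library left out: 5 without s001 (*Bcam*, *Plat*, *Ppib*, *Reck*, *Serpinh1*) and 1 without s002 (*Reck*), names chosen after their values were seen. The cause was not tested. The share of EC with both *Col4a1* and *Col4a2* fell from 34.9 to 17.0% on thinning, which lowers every count, and was 32.7 to 37.0% with 1 library left out. Of the 10 genes' log2 differences under the alternatives, 149 moved by less than their SE and 17 by more, and of their levels 145 by less than their SD and 5 by more. No paired analysis was possible because nothing in the sources used here pairs the libraries. Depth limits *Lamb1* (9 to 19 counts a library), *Col4a5* (20 to 52) and the small clusters.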
